A study of Homo sapiens with 2 samples.

Results

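Wnt proteins are secreted, lipid-modified ligands, and 10 genes of Wnt ligands, their receptors and an enzyme that inactivates them were followed here: WNT5A, WNT5B, NOTUM, ROR1, ROR2, RYK, FZD5, FZD6, LRP5 and LRP6. They were taken by gene symbol from the 26447 gene symbols of the deposited RNA sequencing tables, and all 10 were found in both tables. The genes were chosen by their role and by their measured CPM in these same 2 libraries, so their differences between the libraries are given as a description, with no test. Both libraries came from C4-2B ENZR, an established human prostate cancer line that grows in the prostate cancer drug enzalutamide, here at 20 µM. The control cells carried a non-targeting short hairpin RNA delivered by lentivirus, and the knockdown cells carried a lentiviral hairpin aimed at the coding region of NRP2, the gene of the co-receptor neuropilin-2; both were selected with an antibiotic. Each condition was sequenced once, from 1 hairpin, and the sources used here do not say whether the selected cells were a pool or a clone. With 1 library per condition there is no spread between replicates, and every interval below covers counting error only. These reads carry no molecular identifiers and can be copies of 1 molecule. The intervals count each read as independent and can therefore be too narrow even for counting error.

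As background, a Wnt ligand binds a Frizzled receptor together with a partner that decides the branch. With LRP5 or LRP6 as partner, beta-catenin is spared from destruction and acts with TCF and LEF factors in the nucleus. With ROR1, ROR2 or RYK, receptors with a tyrosine kinase-like domain, the signal runs to the cytoskeleton, planar polarity or calcium without beta-catenin. WNT5A is the best known ligand of this second, non-canonical kind, and in prostate cancer it has been linked to motility and to drug resistance. NOTUM removes the lipid from Wnt ligands outside the cell and so inactivates them.

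Levels are given as deposited, in CPM (read counts scaled to the size of the library and then by TMM factors), and a log2 change is log2((CPM + 1) with the NRP2 hairpin/(CPM + 1) with the control hairpin), a scale on which low genes look less changed than they are. The libraries held 21052178 and 22992304 reads on genes, and their CPM summed to 1024943 and 1084413. The TMM factors these sums imply do not multiply to 1, as those of a pair of libraries normalized together would, so how the libraries were scaled to each other is not known, and ratios at equal totals are given where they matter. NRP2 itself had 20 reads with the control hairpin and 7 with the NRP2 hairpin, or 0.974 and 0.330 CPM. It was 2.95-fold lower with a counting interval of 1.20 to 8.26. Its mean of 0.652 CPM lay under 1 CPM, and its log2 change of -0.57 stayed short of 1.5-fold. The labels of a luminal prostate line were met: all 11 luminal markers passed a mean of 1 CPM. Of these markers 3 were at least 1.5-fold higher with the NRP2 hairpin, beside 5.78% of all 13316 genes past that mean. They were KLK3 (5.60 and 41.0 CPM), KLK2 (16.4 and 92.5 CPM) and TMPRSS2 (117 and 181 CPM). At least 1.5-fold lower were 0 of the markers, beside 3.57% of the same 13316 genes. FOXA1, picked with its value known, was just short of that line at 453 and 302 CPM (log2 change -0.58), and STEAP2 and SLC45A3, likewise picked, had ratios of 0.790 and 0.833. The part of the luminal markers in the results was not tested.

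WNT5A has a pair of transcript starts in RefSeq, and the files give 1 value for the gene, so which start the reads came from cannot be read from them. The 250 bases before each start are shown because WNT5A carried the largest difference among these genes. Both are from RefSeq, build GRCh38.p14, minus strand, written 5′ to 3′, and capitals mark GGGCGG, the GC box, on either strand (read as CCGCCC on the other strand). The first lies at chr3:55487307-55487556 and the second at chr3:55481399-55481648.
WNT5A distal start: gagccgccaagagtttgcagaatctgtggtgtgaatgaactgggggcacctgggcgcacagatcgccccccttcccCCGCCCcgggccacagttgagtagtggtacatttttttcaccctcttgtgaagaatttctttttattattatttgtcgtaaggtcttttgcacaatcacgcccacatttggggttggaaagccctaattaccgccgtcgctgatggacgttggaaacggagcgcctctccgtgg
WNT5A proximal start: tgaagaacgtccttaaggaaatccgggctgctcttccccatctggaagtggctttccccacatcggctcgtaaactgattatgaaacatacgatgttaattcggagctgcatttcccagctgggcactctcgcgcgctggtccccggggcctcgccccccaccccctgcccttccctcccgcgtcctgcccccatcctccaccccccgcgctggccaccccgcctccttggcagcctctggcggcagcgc
The GC box was found once in the first window, 174 bases before the start, and not in the second. Of all 35116 RefSeq windows of this length, 42.6% hold it. Of the 9 windows available for the 10 genes, 6 hold it, so it is not particular to WNT5A. A match of letters is a description, not a bound site.

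WNT5A was at 83.8 CPM with the control hairpin and at 19.1 CPM with the NRP2 hairpin. The control library was thus the high one and the NRP2 hairpin library the low one. These levels rest on 1721 and 406 reads. WNT5A was 4.38-fold lower with the NRP2 hairpin (counting interval 3.92 to 4.89), a log2 change of -2.07. In bulk RNA, fewer cells that express a gene and less RNA of it per cell cannot be told apart. Among the 13316 genes whose mean reached 1 CPM, WNT5A had the 7th lowest change. Of the 6 genes below it, chosen here after their values were seen, GTF2IP4, PPAN-P2RY11, SULT1A3, SULT1A4 and RGPD6 are pseudogene, readthrough or near-identical copies whose reads are uncertain, and the other was TNC, the matrix protein tenascin-C.

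WNT5B, the closest paralog of WNT5A, was at 0.438 CPM with the control hairpin and 1.08 CPM with the NRP2 hairpin. It was low in both libraries and higher with the NRP2 hairpin, the opposite order to WNT5A. Its mean lay under 1 CPM, so it was not counted in either direction. On 9 and 23 reads the ratio was 2.48 (1.10 to 6.08). There were 191 reads of WNT5A for each read of WNT5B with the control hairpin and 17.7 with the NRP2 hairpin. This ratio was 10.8-fold lower with the NRP2 hairpin (exact conditional interval 4.78 to 26.8), a measure that does not depend on how the libraries were scaled. No window of 50 bases in the longest WNT5A or WNT5B transcript occurs in a transcript of another gene, on either strand, so reads of that length would tell the paralogs apart.

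NOTUM was at 0.682 CPM with the control hairpin and 2.59 CPM with the NRP2 hairpin. Both levels were low, the NRP2 hairpin library being the higher. The mean of NOTUM passed 1 CPM only through that library. On 14 and 55 reads the ratio was 3.81 (2.09 to 7.41), and the log2 change was 1.10. NOTUM is also a feedback target of beta-catenin signalling in several tissues. With a pseudocount of 5 its log2 change was 0.42, below the 1.5-fold line.

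**Figure D1:**
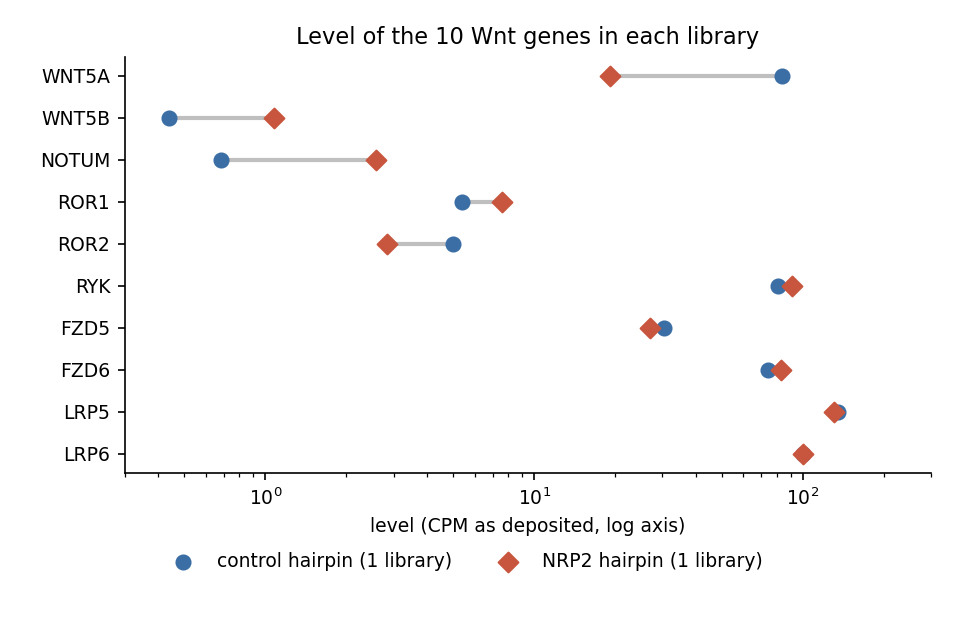
Level of each of the 10 genes in CPM as deposited (horizontal log axis), with a circle for the control hairpin library and a diamond for the NRP2 hairpin library. WNT5A moves from 83.8 to 19.1 CPM, while LRP5 and LRP6 have nearly overlapping symbols.

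Of the 3 kinase-like receptors, ROR1 and ROR2 were low and differed in opposite directions, and RYK had many reads and was nearly level. ROR2, a receptor through which WNT5A signals, was at 5.01 CPM with the control hairpin and 2.83 CPM with the NRP2 hairpin, from 103 and 60 reads. Like WNT5A, it was lower with the NRP2 hairpin. The size was 1.77-fold (1.28 to 2.48), with a log2 change of -0.65. ROR2 was no longer past 1.5-fold with a pseudocount of 5 and was not compared with a filter at a mean of 5 CPM.

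ROR1, a relative of ROR2 that is abundant in the embryo and in some cancers, was at 5.40 CPM with the control hairpin and 7.59 CPM with the NRP2 hairpin. It had more reads than ROR2 in both libraries, 111 against 103 with the control hairpin. Per kilobase of the longest coding transcript ROR2 was the higher with the control hairpin (1.22 against 0.927 CPM) and ROR1 with the NRP2 hairpin (1.30 against 0.691). Between the libraries the ratio of ROR1 was 1.41 (1.10 to 1.81), and its log2 change of 0.42 stayed short of 1.5-fold. There were 1.08 reads of ROR1 for each read of ROR2 with the control hairpin and 2.68 with the NRP2 hairpin. The ratio of these ratios was 2.48 (exact conditional interval 1.64 to 3.79), so the mixture of ROR reads differed between the libraries beyond counting error. The antisense transcript ROR1-AS1 had 2 reads and 0 reads.

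RYK, a Wnt receptor whose kinase domain is thought to be inactive, was at 80.8 CPM with the control hairpin and 90.7 CPM with the NRP2 hairpin. The NRP2 hairpin library was slightly the higher. The ratio was 1.12 (1.05 to 1.20), and with both libraries set to equal totals it was 1.06 (0.993 to 1.13), an interval that holds equal levels. Of the windows of 50 bases in RYK, 3.08% also occur in the pseudogene RYKP1.

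Both Frizzled receptors on the list stayed within 1.5-fold. FZD5, a Frizzled that can bind WNT5A, was at 30.4 CPM with the control hairpin and 27.0 CPM with the NRP2 hairpin, lower in the latter. The ratio was 0.887 (0.790 to 0.995), and 0.838 (0.747 to 0.940) at equal totals. FZD6, which is tied to planar polarity, was at 73.9 CPM with the control hairpin and 83.0 CPM with the NRP2 hairpin, higher in the latter. Its ratio was 1.12 (1.05 to 1.20), and 1.06 (0.990 to 1.14) at equal totals. There were 0.412 reads of FZD5 for each read of FZD6 with the control hairpin and 0.325 with the NRP2 hairpin, a ratio of 0.790 (0.690 to 0.904) that does not depend on scaling.

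The co-receptors of the beta-catenin branch were nearly level. LRP5 was at 135 CPM with the control hairpin and 130 CPM with the NRP2 hairpin, and LRP6 was at 100 CPM in both. Their ratios were 0.966 (0.916 to 1.02) and 1.00 (0.942 to 1.06). At equal totals LRP5 was at 0.913 (0.866 to 0.963) and LRP6 at 0.947 (0.891 to 1.01). The reads of LRP5 for each read of LRP6 were 1.35 and 1.30, a ratio of 0.965 whose interval of 0.889 to 1.05 holds no difference. The partial copy LRP5L, which shares 6 of 5110 windows of 50 bases with LRP5, was at 7.98 and 7.83 CPM.

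In all, 9 of the 10 genes passed a mean of 1 CPM. NOTUM was at least 1.5-fold higher, against 5.78% of all 13316 genes compared, and WNT5A and ROR2 were at least 1.5-fold lower, against 3.57%. NOTUM passed the mean of 1 CPM only through the NRP2 hairpin library, where it was the higher, so its call leans on that filter. At 2-fold NOTUM (background 1.46% higher) and WNT5A (background 0.526% lower) were left. These shares are given beside counts that the choice of genes already reflects. A binomial test of each gene's recovered reads, exact and conditional on their sum, which compares the 2 libraries and not the conditions, called 6954 of the 13316 genes at a Benjamini-Hochberg adjusted p under 0.05, 30.2% higher and 22.0% lower.

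**Figure D2:**
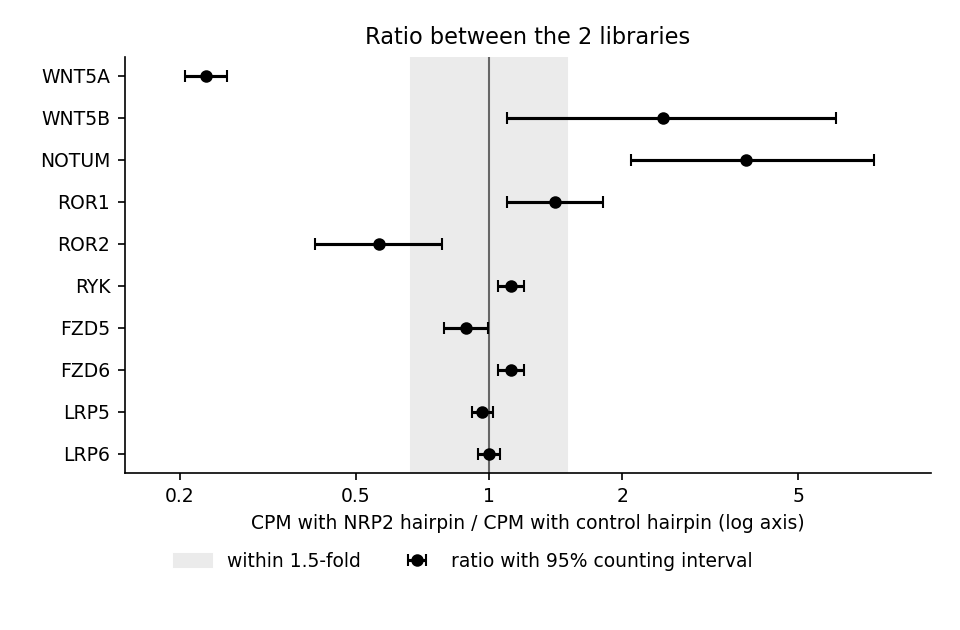
Ratio of CPM with the NRP2 hairpin to CPM with the control hairpin for each gene (horizontal log axis), with exact 95% counting intervals as bars and a grey band for plain ratios within 1.5-fold. WNT5A at 0.229 lies far from the receptors, and NOTUM and WNT5B, with few reads, have the widest intervals.

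**Figure D3:**
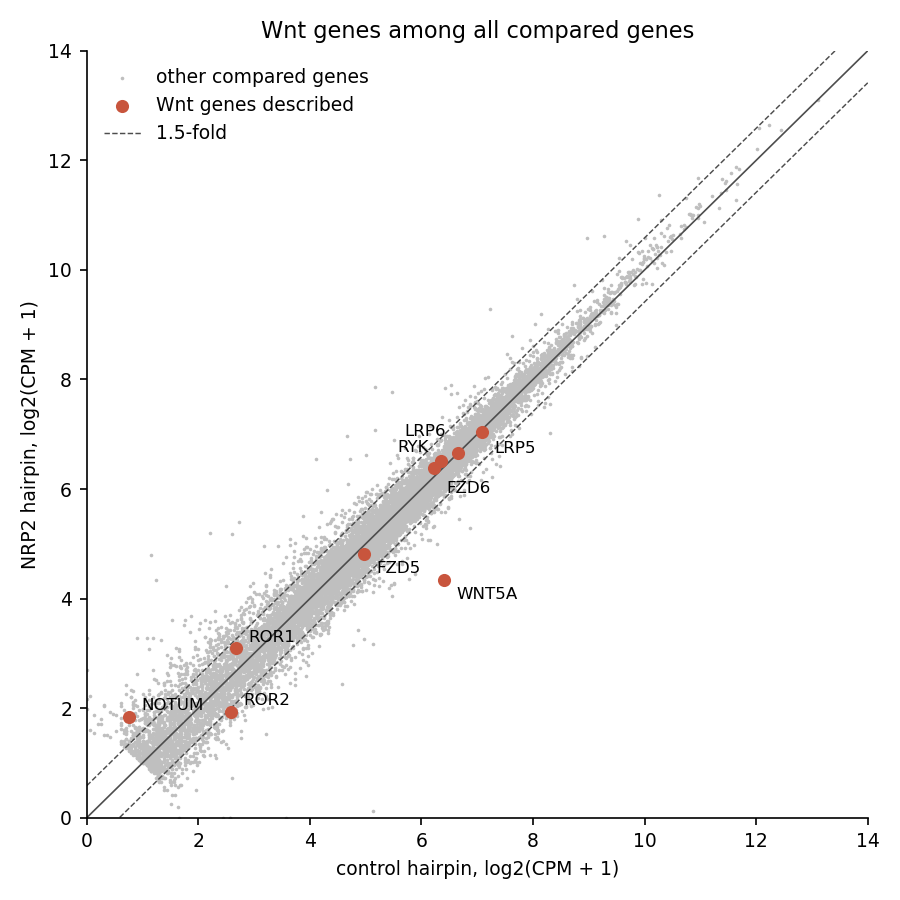
Each grey point is 1 of the 13316 compared genes, by log2(CPM + 1) with the control hairpin (horizontal) and the NRP2 hairpin (vertical); the solid line marks equal values and the dashed lines 1.5-fold. WNT5A stands well below the lower dashed line, ROR2 just below it and NOTUM above the upper line; WNT5B, under the mean of 1 CPM, is not drawn.

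Levels of different genes were compared per kilobase of the longest coding transcript in the GENCODE annotation. With the control hairpin the order was RYK (27.5 CPM per kilobase), LRP5 (26.2), FZD6 (19.5), WNT5A (13.6), LRP6 (9.99), FZD5 (4.54), ROR2 (1.22), ROR1 (0.927), NOTUM (0.293) and WNT5B (0.190). RYK and LRP5, and NOTUM and WNT5B, were neighbours whose difference lay within counting error. With the NRP2 hairpin WNT5A went from the 4th to the 6th place, at 3.10 CPM per kilobase, below LRP6 and FZD5. ROR2 went from the 7th to the 9th place, at 0.691 CPM per kilobase, below ROR1 (1.30) and NOTUM (1.11). In that library ROR1 and NOTUM, and ROR2 and WNT5B, did not differ beyond counting error. Places depend on the length used: with the median transcript length, LRP5 came 1st and LRP6 2nd in both libraries, and WNT5A 4th and 5th.

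Of the 19 human Wnt ligand genes, 8 had a mean of at least 1 CPM. WNT5A had 46.2% of all Wnt ligand reads with the control hairpin (Clopper-Pearson interval 44.6 to 47.8) and 14.1% with the NRP2 hairpin (12.8 to 15.4). It had the most ligand reads with the control hairpin and came after WNT7B and WNT10B with the NRP2 hairpin. WNT7B then had the most, 25.6% with the control hairpin and 40.7% with the NRP2 hairpin. WNT10B, picked with its value known, had 18.3% and 28.1%. Shares of the other ligands rise where that of WNT5A falls. WNT10B itself was at 33.1 and 38.2 CPM, a ratio of 1.15 (1.04 to 1.28) as deposited. This ratio was not recomputed at equal totals, which moved the median log2 change of all genes by -0.08. Per kilobase of transcript, WNT5A made up 29.2% and 7.25%, WNT10B 31.4% and 39.3%, and WNT7B 25.5% and 33.0%. By that measure WNT10B, not WNT5A, led in the control library, and with the median length WNT5A led there at 32.3%.

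The other ligands together were higher, not lower. The 18 ligands other than WNT5A summed to 97.5 CPM with the control hairpin and 117 CPM with the NRP2 hairpin, a ratio of 1.20 (1.13 to 1.27), while all 19 summed to 181 and 136 CPM. WNT7B, a ligand of epithelia, was at 46.4 and 55.3 CPM (log2 change 0.25). WNT3, picked with its value known, was lower, at 7.45 and 5.80 CPM, a ratio of 0.779 (0.609 to 0.994). WNT8B was at 5.16 and 8.87 CPM (log2 change 0.68) and WNT9A at 1.07 and 2.64 CPM (0.81), both at least 1.5-fold higher with the NRP2 hairpin. WNT5A alone was at least 1.5-fold lower. Of the 8 compared ligands 2 were thus higher and 1 lower, beside 5.78% and 3.57% of all 13316 compared genes. The median log2 change of the 8 ligands was 0.17, beside 0.03 for all compared genes. WNT2, WNT8A and WNT16 had 0 reads in both libraries, which allows up to 0.146 and 0.141 CPM (3 reads per library).

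Among the 10 Frizzled genes, 9 passed a mean of 1 CPM and FZD10 had 0 reads in both libraries. FZD6 held the most Frizzled reads, 26.2% with the control hairpin and 28.6% with the NRP2 hairpin, and FZD5 held 10.8% and 9.31%. Per kilobase of the longest transcript FZD6 made up 32.4% in both libraries, and FZD5 7.54% and 5.95%. FZD9 was at 17.3 CPM with the control hairpin and 33.9 CPM with the NRP2 hairpin (log2 change 0.93). Its share of Frizzled reads was 6.14% and 11.7%, or 12.3% and 21.4% per kilobase. FZD9 was the 1 Frizzled gene past 1.5-fold on the log2(CPM + 1) scale. Of all 13316 compared genes, 5.78% were at least 1.5-fold higher and 3.57% lower. FZD8, picked with its value known, was at 1.95 and 0.990 CPM, with a plain ratio of 0.509 (0.285 to 0.883) but a log2 change of -0.57 on that scale. It was at least 1.5-fold lower at equal totals, with the median change set to 0, with quantile normalization or with a pseudocount of 0.25. The median of the 9 genes was -0.15.

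**Figure D4:**
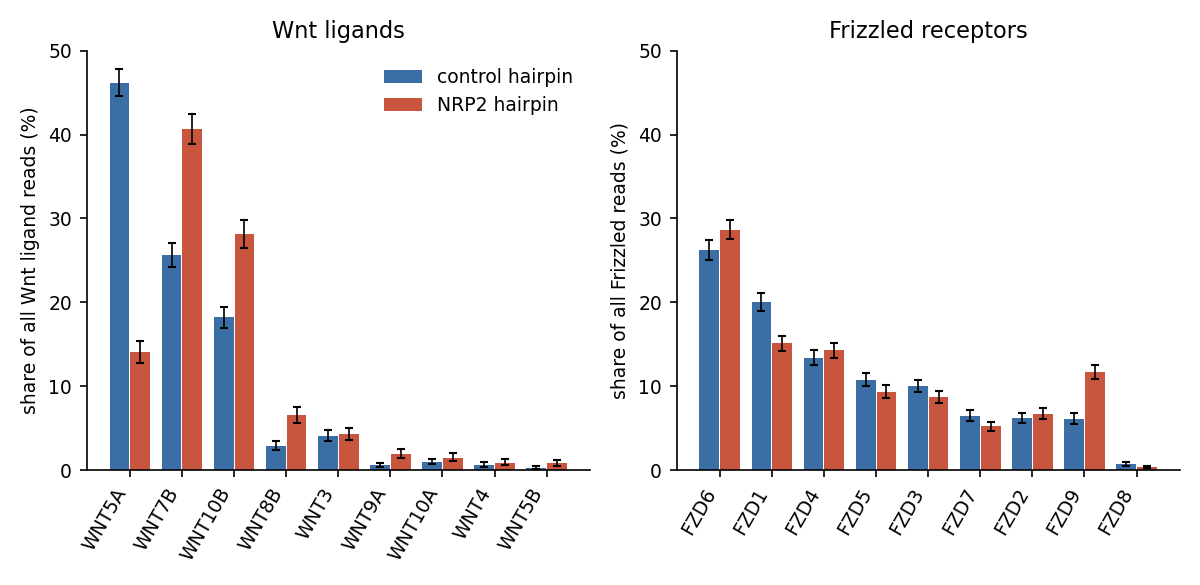
Share of all Wnt ligand reads (left) and of all Frizzled reads (right) held by the genes named on the horizontal axes, in percent, with exact 95% counting intervals as bars. WNT5A drops from 46.2% to 14.1% of ligand reads between the control and the NRP2 hairpin library, and FZD6 leads the Frizzled reads in both.

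Other Wnt pathway genes were placed in 11 lists by role, chosen with earlier results of these data known. Of 146 listed genes that are not among the 10, 106 had a mean of at least 1 CPM; 11 were at least 1.5-fold higher (10.4%, beside 5.78% of all compared genes) and 5 lower (4.72%, beside 3.57%), with a median log2 change of 0.06. The counts of each list stand beside the same shares over all genes. Setting both libraries to equal totals moved the median over all genes by -0.08, and 18 of the 19 genes past 1.5-fold in the lists, the 10 genes included, kept their call; NFATC1 lost it, and APC2, FZD8 and NLK were added as lower. With a pseudocount of 5, 13 of the 19 kept it, and IGFBP4, NFATC1, NOTUM, ROR2, WNT8B and WNT9A lost it. With a filter at a mean of 5 CPM, 15 were left, without IGFBP4, NOTUM, ROR2 and WNT9A.

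Receptors and co-receptors outside the Frizzled family included 11 compared genes of 12, 1 higher and 1 lower, with a median of 0.22. The lower one was ROR2. GPC4, a cell surface glypican that binds Wnt ligands, was at 26.1 and 44.1 CPM (log2 change 0.73). PTK7, a pseudokinase co-receptor of planar polarity, had the most reads of the list with the control hairpin and was at 151 and 111 CPM (-0.44). MCAM, a surface protein that can bind WNT5A, was picked with its value known and stood at 5.99 and 8.91 CPM (0.50).

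Genes that load, ship and remove Wnt ligands were nearly level apart from NOTUM. PORCN, the enzyme that adds the lipid, was at 10.3 and 9.43 CPM, and WLS, the carrier that takes the lipidated ligand to the cell surface, was at 36.2 and 34.3 CPM; both were picked for their roles with the values known. VPS35, a retromer subunit needed to recycle WLS, had the most reads of the list and was at 160 and 167 CPM. All 9 genes were compared, with NOTUM as the 1 higher gene, 0 lower and a median of 0.06. NOTUM was compared only through its level with the NRP2 hairpin.

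Of the secreted and membrane antagonists, 5 of 18 were compared, 2 were higher and 0 lower, and the median was 0.38. KREMEN2, a receptor for Dickkopf proteins that clears LRP5 and LRP6 from the surface, was at 13.9 and 27.4 CPM (log2 change 0.94). IGFBP4, an IGF-binding protein that can also block Frizzled and LRP6, was at 1.75 and 3.91 CPM (0.84). KREMEN1 was at 36.7 and 44.1 CPM (0.26). Of the R-spondins and the genes of receptor turnover, 4 of 9 were compared and 0 passed 1.5-fold in either direction, with a median of 0.07. ZNRF3, a ligase that removes Frizzled from the surface, had the most reads there, at 48.4 and 40.5 CPM.

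Single genes of the non-canonical branches passed 1.5-fold while the list medians stayed near that of all genes. Among 12 compared planar polarity genes of 14, CELSR3, an atypical cadherin, was at 7.01 and 13.5 CPM (log2 change 0.86), the 1 higher gene against 0 lower. SCRIB, a polarity scaffold, had the most reads, at 140 and 133 CPM, and the median of the list was 0.06. Among 20 compared genes of 23 in the calcium branch, 3 were higher and 1 lower, with a median of 0.16; at equal totals 2 were higher and 2 lower. CAMK2B, a calcium/calmodulin-dependent kinase subunit, was at 11.5 and 30.7 CPM (1.34), the calcium channel gene ITPR1 at 41.6 and 72.4 CPM (0.79) and the transcription factor gene NFATC1 at 11.5 and 18.1 CPM (0.61). PLCB4, a phospholipase C, was at 36.8 and 17.7 CPM (-1.01). PPP3CA, the catalytic subunit of calcineurin, had the most reads, at 214 and 263 CPM.

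The beta-catenin core was close to level. Of 27 compared genes of 29, 0 were higher and 1 lower, with a median of -0.04; at equal totals 2 were lower. CTNNB1, which encodes beta-catenin, was at 637 and 686 CPM. The lower gene was TNKS2, a tankyrase that marks Axin for destruction, at 88.4 and 49.8 CPM (log2 change -0.82).

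Known target genes of beta-catenin went both ways. Of 12 compared genes of 15, 2 were higher and 3 lower, with a median of -0.18. LEF1, a nuclear partner of beta-catenin, was at 57.9 and 21.0 CPM (log2 change -1.42). The receptor gene TNFRSF19 was at 152 and 73.6 CPM (-1.04) and the TGF-beta pseudoreceptor gene BAMBI at 208 and 110 CPM (-0.92). The higher genes were NOTUM, compared only through its NRP2 hairpin level, and ASCL2. ASCL2, a stem cell transcription factor picked with its value known, was at 5.50 and 11.2 CPM (0.91). AXIN2, a widely used readout of the pathway picked with its value known, was at 7.74 and 5.14 CPM (-0.51). The plain ratio of AXIN2 was 0.664 (0.516 to 0.853). CCND1 had the most reads, at 376 and 456 CPM.

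**Figure D5:**
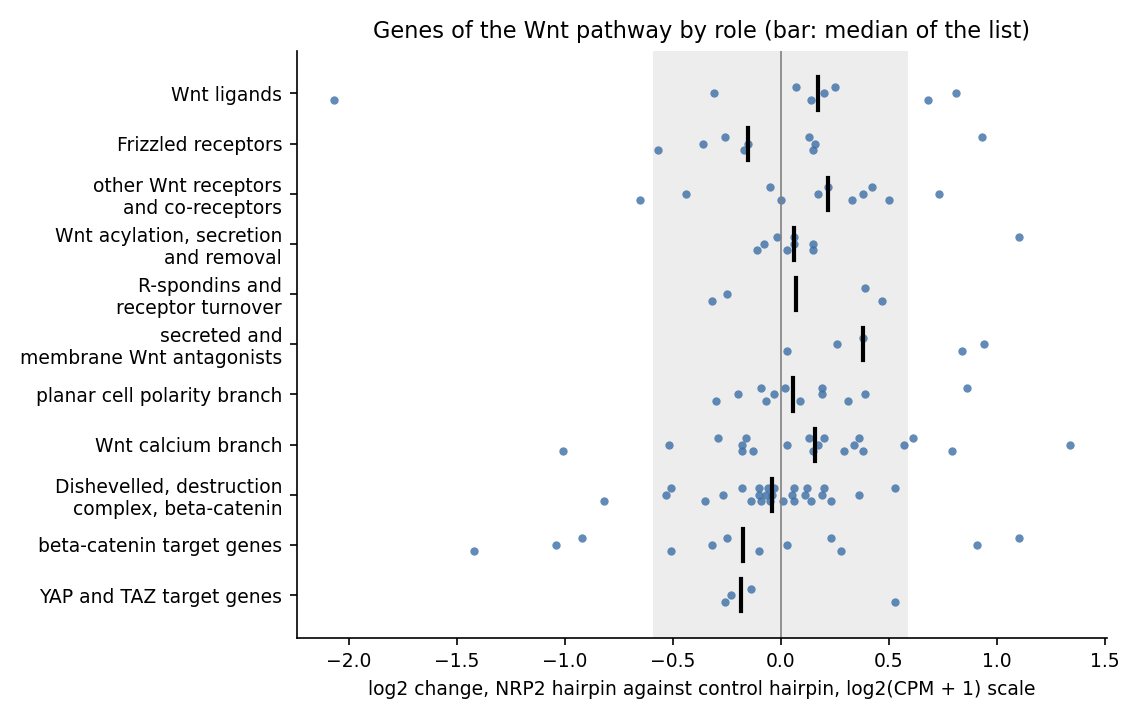
Log2 change with the NRP2 hairpin against the control hairpin (horizontal axis, log2(CPM + 1) scale) of each compared gene in 11 lists of Wnt pathway genes, with a black bar at the median of a list and a grey band for changes within 1.5-fold. WNT5A at -2.07 is the lowest point of any list, and the list medians lie between -0.18 and 0.38.

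The genes whose levels lay nearest to those of WNT5A in both libraries were LEF1, VAC14, NRP1, BCL9 and NGLY1. Likeness was the Euclidean distance in log2(CPM + 1) over the 2 libraries, so it joins level and change, and it was 0.54, 0.64, 0.68, 0.78 and 0.78. NRP1, the paralog of NRP2, was at 76.7 and 31.0 CPM, 2.48-fold lower (2.26 to 2.72). BCL9, a co-activator that binds beta-catenin, was at 70.5 and 32.6 CPM, 2.16-fold lower (1.97 to 2.37). VAC14, a scaffold of phosphoinositide synthesis, was at 53.6 and 19.6 CPM, and NGLY1, a cytosolic deglycosylase, at 52.3 and 25.7 CPM.

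In tissue, WNT5A is also made by fibroblasts, so markers of other cell types were read beside it. Of 10 fibroblast and stromal markers, 4 reached a mean of 1 CPM and 0 passed 1.5-fold. Of all compared genes, 5.78% were at least 1.5-fold higher and 3.57% lower. Decorin (DCN), a defining fibroblast gene picked with its value known, had 0 reads in both libraries, while LUM had 21 and 20 reads, COL1A2 30 and 26, PDGFRB 50 and 40 and ACTA2 32 and 43. THY1 had 0 reads with the control hairpin and 12 with the NRP2 hairpin, the opposite order to WNT5A. These genes too were picked with their values known. The 10 markers summed to 48.4 CPM with the control hairpin and 39.4 CPM with the NRP2 hairpin, most of it from COL1A1 at 41.5 and 32.5 CPM. The 6 endothelial markers summed to 4.53 and 4.81 CPM and the 6 leukocyte markers to 0.779 and 1.08 CPM; VWF and LYZ had the most reads of these lists. The fibroblast sum was thus lower with the NRP2 hairpin, as WNT5A was. Nearly all of that difference in the sum came from COL1A1, which was 1.27-fold lower (counting interval 1.15 to 1.41). The part of the fibroblast markers in the result was not tested.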

How the data were processed

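RNA was sequenced from 2 C4-2B ENZR libraries, 1 per hairpin. Each deposited table gives 1 signal value per gene symbol, named in the deposited files as TMM-normalized CPM. The submitters' processing notes name build hg19 and, with no order or role, RSEM 1.2.15, edgeR, Bowtie2 2.1.0 and bcl2fastq 2.17. The sources used here do not give the annotation, read length, read filters or strand setting. The columns sum to 1024943 and 1084413. Divided by what 1 read is worth (0.0487 and 0.0472 CPM), 100% of the deposited values came out whole within 0.01 read, so whole reads were recovered: 21052178 and 22992304. Calendar dates stood in place of 28 of the 26475 symbols; they held 0.181% and 0.184% of the reads and were left out.

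Python 3.11.15 with numpy 2.4.6, pandas 2.3.3 and scipy 1.17.1 computed log2((CPM + 1)/(CPM + 1)), plain ratios with exact conditional binomial (Clopper-Pearson) 95% intervals, family shares with Clopper-Pearson intervals, and ratios of ratios with exact conditional intervals. The calculations were tested on simulated counts. A gene was compared at a mean of at least 1 CPM and called higher or lower from a change of 1.5-fold in (CPM + 1). The members and lists were chosen with earlier results of these data known. Named genes are the 10 members, up to 4 genes per list past 1.5-fold with the largest changes, the gene with the most reads in each list, the 5 genes nearest to WNT5A in both libraries, and NRP2 and NRP1. LRP5L and ROR1-AS1 were named because their symbols begin with that of a member. WNT2, WNT8A, WNT16 and FZD10 were named for 0 reads in both libraries, and APC2 and NLK for a call gained at equal totals. Any other gene named for its value carries a remark that its value was known. List genes were matched by symbol, 2 of 189 through an older one. Lengths come from GENCODE release 29 transcripts and promoters from RefSeq (GRCh38.p14); no coordinate was carried to hg19. The design had planned protein comparisons, which are not reported here. Alternatives were other pseudocounts, scalings, filters, a 2-fold threshold and other lengths. A binomial test of recovered reads, exact and conditional on their sum, with Benjamini-Hochberg adjustment, plain ratios, equal-total intervals and the GC box search were added after the data were seen.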

Additional observations from a re-analysis of the deposited data

How the results depend on the processing

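WNT5A was lower with the NRP2 hairpin under every pseudocount, scaling and plain ratio tried, with log2 changes between -2.15 and -1.88; the value of -1.88 came with a pseudocount of 5. With that pseudocount 0 of the 10 genes were at least 1.5-fold higher and 1 was lower, and 329 of all genes were higher and 159 lower; a larger pseudocount shrinks the change of low genes by construction. With a filter at a mean of 5 CPM, which removes NOTUM and ROR2, these numbers were 0 and 1 of the 10 genes, and 465 and 310 of all genes. At 2-fold 1 of the 10 genes was lower, and 194 and 70 of all genes were higher and lower. The binomial test on recovered reads called 4028 genes higher and 2926 lower. As deposited 769 genes were at least 1.5-fold higher and 476 lower, a share of 61.8% higher, which was 47.6% with both libraries set to equal totals (587 and 646). Members near level moved with scaling, LRP6 between -0.08 and 0.00 and LRP5 between -0.13 and -0.05, and low members with the pseudocount, NOTUM between 0.42 and 1.93 and WNT5B between 0.16 and 1.31. Only WNT5A, ROR2 and NOTUM had a call that could be reversed, and none of their alternative values changed sign. A pseudocount or a plain ratio cannot change a sign, so those values could not have reversed a call. With a pseudocount of 5, ROR2 and NOTUM lost their calls. No paired analysis was possible because each condition has 1 library, and leaving out a replicate was not run for the same reason. Depth limits NRP2, WNT5B and NOTUM, with at most 55 reads per library.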

Other observations

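YAP and TAZ, co-activators of the Hippo pathway, have been tied to non-canonical Wnt signalling as background, and 4 of their 6 listed target genes had a mean of at least 1 CPM. None passed 1.5-fold in either direction, and the median log2 change was -0.18. AJUBA, a LIM domain scaffold, had the most reads of the list and was at 34.4 CPM with the control hairpin and 29.3 CPM with the NRP2 hairpin (log2 change -0.23). CYR61, a matricellular protein gene picked with its value known, was at 8.91 and 7.97 CPM.

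In the RefSeq promoter table used here, 9 windows matched 7 of the 10 genes. The letters CTTTGA, the core of the TCF/LEF motif, and ACGTG, the core of the hypoxia response element, were searched on both strands in the 250 bases before each start; neither holds the other or GGGCGG. They were found in 0 of the 9 windows, against 11.2% and 18.5% of all 35116 windows. This says only that these letters are not in these windows.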
